A study of Mus musculus with 18 samples.

Results

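The genes that encode the protein parts of the cytosolic ribosome were followed across 18 RNA-seq libraries of mouse cochlear cells. Members were all protein-coding genes whose symbol begins with Rpl or Rps followed by a number, with the paralogs that end in "l", plus Rpsa, Rplp0, Rplp1 and Rplp2. Pseudogenes, mitochondrial ribosomal protein genes and the Rps6k kinases were not taken. This gave 84 genes of 47729 in the tables, 32 of the small subunit and 52 of the large subunit, and 80 of them passed a filter of at least 1 TPM in at least 2 libraries. TPM is a transcript's abundance per unit of its length, scaled so that each library sums to 1000000.

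The libraries form 9 groups of 2. Of the cultures, called LCP in the labels and described there as primary cochlear organoids, sorted cells were taken at day 10 (D10) and day 0 (D0) of differentiation, and unsorted cells at D0, D2, D4 and D10. Native cells of the cochlear sensory epithelium were sorted at postnatal day 2 and are named Atoh1, Lgr5 and Sox2. Atoh1 marks hair cells, and Lgr5 and Sox2 mark supporting cells. The labels tie no genotype, strain or reporter to a library, and they do not say on which marker the cultures were sorted. Their shared treatment text describes tamoxifen given to Sox2-CreER pups with a floxed β-catenin exon, whose ages at death differ from that of the native sorts, and no sample title names it. Per the labels' protocols each sample came from both ears of 1 pup, and epithelium was freed from mesenchyme and neurons before RNA extraction. In these bulk libraries, fewer cells of a type and less RNA per cell cannot be told apart.

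Each ribosome carries 1 copy of most of its proteins, so a cell has to supply these mRNAs in proportion. In vertebrates most ribosomal protein mRNAs begin at a cytosine followed by a pyrimidine run, the terminal oligopyrimidine (TOP) motif, through which mTOR signalling and the protein Larp1 set how much of each mRNA is translated. Growing and dividing cells are known for high ribosome production.

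The stretch around the annotated start was read for the members with a RefSeq promoter entry (build GRCm38.p6, the patch release of the mm10 assembly), which were 64 of the 84 genes. The run sought was a C followed by at least 4 C or T bases, with that C within 10 bases of the start on the gene's own strand. Pyrimidines further upstream were not considered. Such a run was found for 39 of the 64 genes (60.9%), against 34.4% of the 27025 genes in that table. The windows below run from 20 bases before the start to 20 bases from it on, 5′ to 3′ on the gene's strand, and capitals mark that run. The first 4 belong to genes that were lower at D10 than at D0 in both kinds of culture and hold the run. The next 2 belong to genes lower in both that lack it, and the last 2 to Rpl5 and Rps4x, which lack it too. In sorted cultures Rpl5 and Rps4x differed between D10 and D0 by -0.04 and -0.84. Members with a smaller difference than Rps4x were of both kinds. Rpl12 (-0.67) and Rpl22l1 (-0.79) hold the run, while Rpl9 (-0.67) and Rpl36al (-0.70) lack it.
Rpl28, chr7:4792945-4792984, plus strand: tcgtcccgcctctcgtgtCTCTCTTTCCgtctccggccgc
Rpl35, chr2:39005112-39005151, minus strand: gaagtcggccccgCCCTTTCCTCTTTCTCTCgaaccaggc
Rps10, chr17:27635225-27635264, minus strand: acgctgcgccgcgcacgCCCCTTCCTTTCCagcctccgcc
Rpl31, chr1:39367831-39367870, plus strand: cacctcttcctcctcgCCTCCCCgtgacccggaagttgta
Rpl13, chr8:123102330-123102369, plus strand: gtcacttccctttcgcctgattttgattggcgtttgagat
Rps16, chr7:28350669-28350708, plus strand: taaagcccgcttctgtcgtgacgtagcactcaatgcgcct
Rpl5, chr5:107900508-107900547, plus strand: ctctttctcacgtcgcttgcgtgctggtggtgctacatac
Rps4x, chrX:102189372-102189411, minus strand: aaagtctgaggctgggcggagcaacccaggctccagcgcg
No run was found in the last 4 windows at the annotated start. The Rpl13, Rps16 and Rpl5 windows hold one further upstream, so a start nearer to it would change this. The Rps4x window holds none. In the full entries of 250 bases before and 50 after the start, searched on both strands, CCGGAA (the core bound by Ets factors) was present in 54.7% of the 64 members and 16.7% of all genes. GGGCGG (the GC box) was present in 62.5% and 38.2%, AAGATGGC (a Yy1 motif) in 9.38% and 3.19%, CACGTG (the E-box bound by Myc and Max) in 9.38% and 8.09%, and TATAAA (the TATA box) in 10.9% and 15.7%. In 1 member a CCGGAA and an AAGATGGC match shared bases, and no other pair of these motifs did so in a member. The matches are descriptions of sequence, not of binding.

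Summed over the 84 genes, ribosomal protein mRNA took 1.58% to 4.24% of all TPM. The lowest group mean was that of sorted D10 cultures, at 1.58% and 2.00% in replicates 1 and 2, against 3.56% and 4.24% in sorted D0 cultures. In unsorted cultures the shares were 3.56% and 4.17% at D0, 3.75% and 3.48% at D2, 3.18% and 3.16% at D4, and 2.97% and 1.91% at D10. Native sorts had 2.40% and 1.83% (Atoh1), 2.50% and 2.73% (Lgr5), and 2.28% and 2.13% (Sox2). The means of the unsorted cultures decreased with each day sampled, while the 2 D10 libraries stood far apart from each other.

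**Figure D1:**
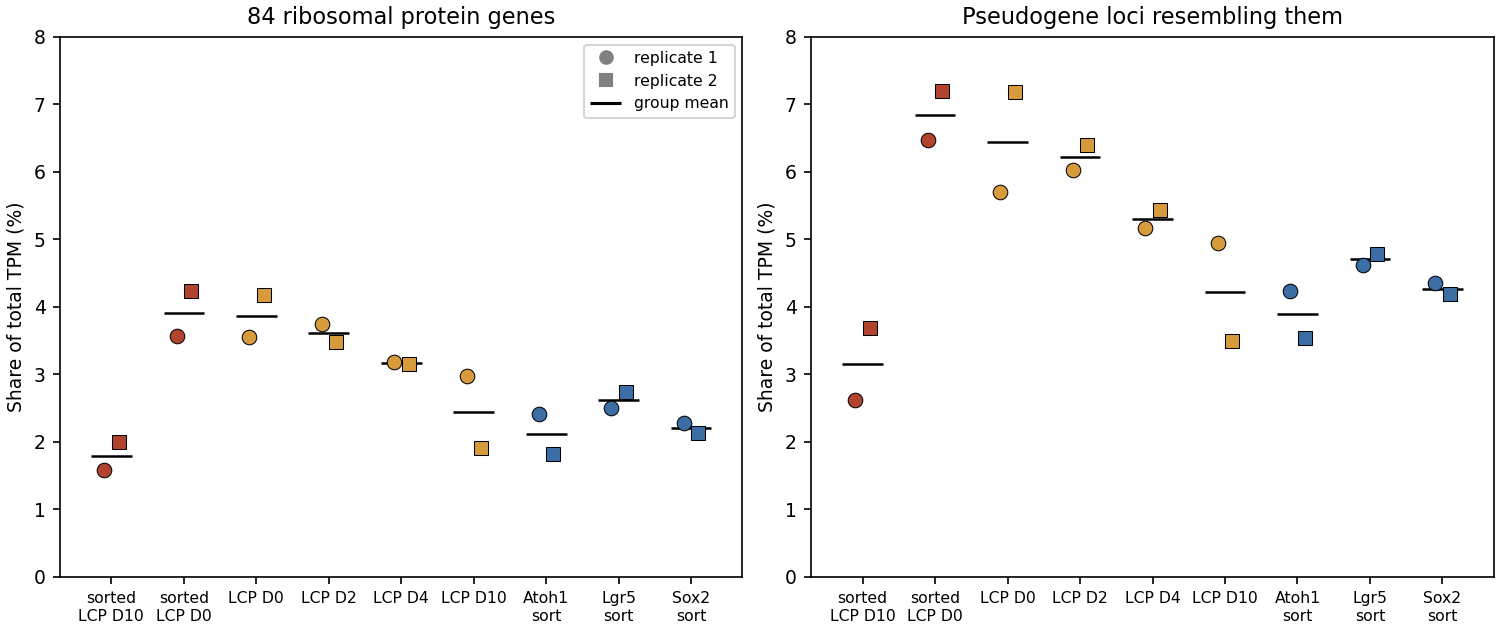
Share of total TPM (%) listed under the 84 ribosomal protein genes (left) and under the 935 pseudogene loci that resemble them (right), by group. Circles are replicate 1, squares replicate 2 and bars group means; red is sorted cultures, orange unsorted cultures and blue native sorts. The sorted D10 libraries lie at 1.58% and 2.00%, below both sorted D0 libraries, and their pseudogene loci lie at 2.61% and 3.68%, below the 6.47% and 7.20% of sorted D0.

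Taking sorted and unsorted cultures together, the share was 2.12% ± 0.599 at D10 and 3.88% ± 0.372 at D0 (SD, n = 4 each), a ratio of 0.545. The 4 D10 libraries lay at 1.58% to 2.97% and the 4 D0 libraries at 3.56% to 4.24%, without overlap. The exact two-sided permutation test gave p = 0.0286, the smallest that the 70 arrangements allow, and 0.0638 after Benjamini-Hochberg adjustment over the 3 share comparisons. Exact permutation within replicate numbers gave p = 0.0556, the smallest possible under that restriction. Cultures of all days held 3.13% ± 0.872 (SD, n = 12) and native sorts 2.31% ± 0.314 (SD, n = 6), with overlapping ranges (exact permutation p = 0.0426, adjusted p = 0.0638; p = 0.0510 within replicate numbers and 0.0721 with pseudogene loci added). That test treats culture libraries of different days as exchangeable. Among native sorts the Atoh1 cells held 2.11% ± 0.409 (SD, n = 2) and the Lgr5 and Sox2 cells 2.41% ± 0.265 (SD, n = 4), with overlapping ranges. The exact permutation p was 0.4, and 15 arrangements cannot give less than 0.133.

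The members span a wide range of listed levels. Averaged over 18 libraries, the highest were Rps19 (1725 TPM), a small-subunit protein whose gene is mutated in human Diamond-Blackfan anaemia, Rpl41 (1405 TPM), which encodes a very short peptide, Rps15a (1204 TPM), Rpl6 (1137 TPM) and Rps14 (1109 TPM). These 5 genes made up 23.04% of the summed member TPM, and the median of the 80 members was 308 TPM. The lowest of the 80 were Rpl12 (7.52 TPM), Rpl5 (13.9 TPM), which encodes a carrier of 5S ribosomal RNA, Rpl27a (30.7 TPM), Rpl7l1 (37.5 TPM) and Rpl21 (49.1 TPM). TPM is scaled to transcript length, but the lowest levels include genes whose reads are mostly listed under other loci, as described below, so their order is no order of expression.

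The 4 genes below the filter were Rps12 and the paralogs Rpl3l, Rpl39l and Rpl10l. In mouse, Rpl3l is known from muscle, and Rpl39l and Rpl10l from testis. Rpl3l reached at most 0.295 TPM, Rpl39l 0.0618 TPM and Rpl10l 0.0825 TPM in any library. Rps12, a small-subunit protein that every cell uses, was listed at 0 in all 18 libraries, while a resembling locus named Rps12l1 averaged 279 TPM.

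Reads of these genes can be shared with processed pseudogenes. Transcripts of 935 pseudogene loci matched those of 80 members at 90% identity or more over at least 50% of their length, and these loci held 2.61% to 7.20% of TPM, more than the members themselves in every library. Gm14303, which matches Rps29, averaged 6852 TPM, and Rpl38-ps2 averaged 5349 TPM. Of the TPM of a member and its matching loci together, the median member held 52.1%, Rpl21 held 2.25%, Rpl5 5.20%, Rpl12 0.646% and Rps19 82.3%. The single-end reads were 75 bases long, and 16 members shared over 50% of their 75-base windows exactly with such a locus, against 17 that shared under 5%. Levels of single members are therefore uncertain wherever they rest on the split between near-identical loci, and each comparison below was repeated on member and pseudogene loci summed.

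Across the 18 libraries the members moved largely together. Pearson's r of each member with the median of all members was 0.907 at the median of 80 genes and above 0.9 for 41 of them, as a description over libraries that share groups and scaling. Rpl5 (r = -0.22), Rpl12 (0.29) and Rpl21 (0.41) were the 3 genes below 0.5, and all 3 have most of their summed TPM listed under pseudogene loci. On the log2(TPM + 1) scale the SD of the 9 group means was largest for Rps19 (0.80), Rpl21 (0.79), Rps2 (0.78), Rpl29 (0.72) and Rpl3 (0.67). It was smallest for Rpl10a (0.22), Rpl22l1 (0.24), Rpl36al (0.25), Rpl9 (0.25) and Rpl27 (0.27). Some members also differed between replicates: Rpl34, picked out after its values were seen, had 292, 293, 280 and 245 TPM in replicate 1 of unsorted D0, D2, D4 and D10, but 124, 110.4, 94.5 and 57.1 TPM in replicate 2.

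**Figure D2:**
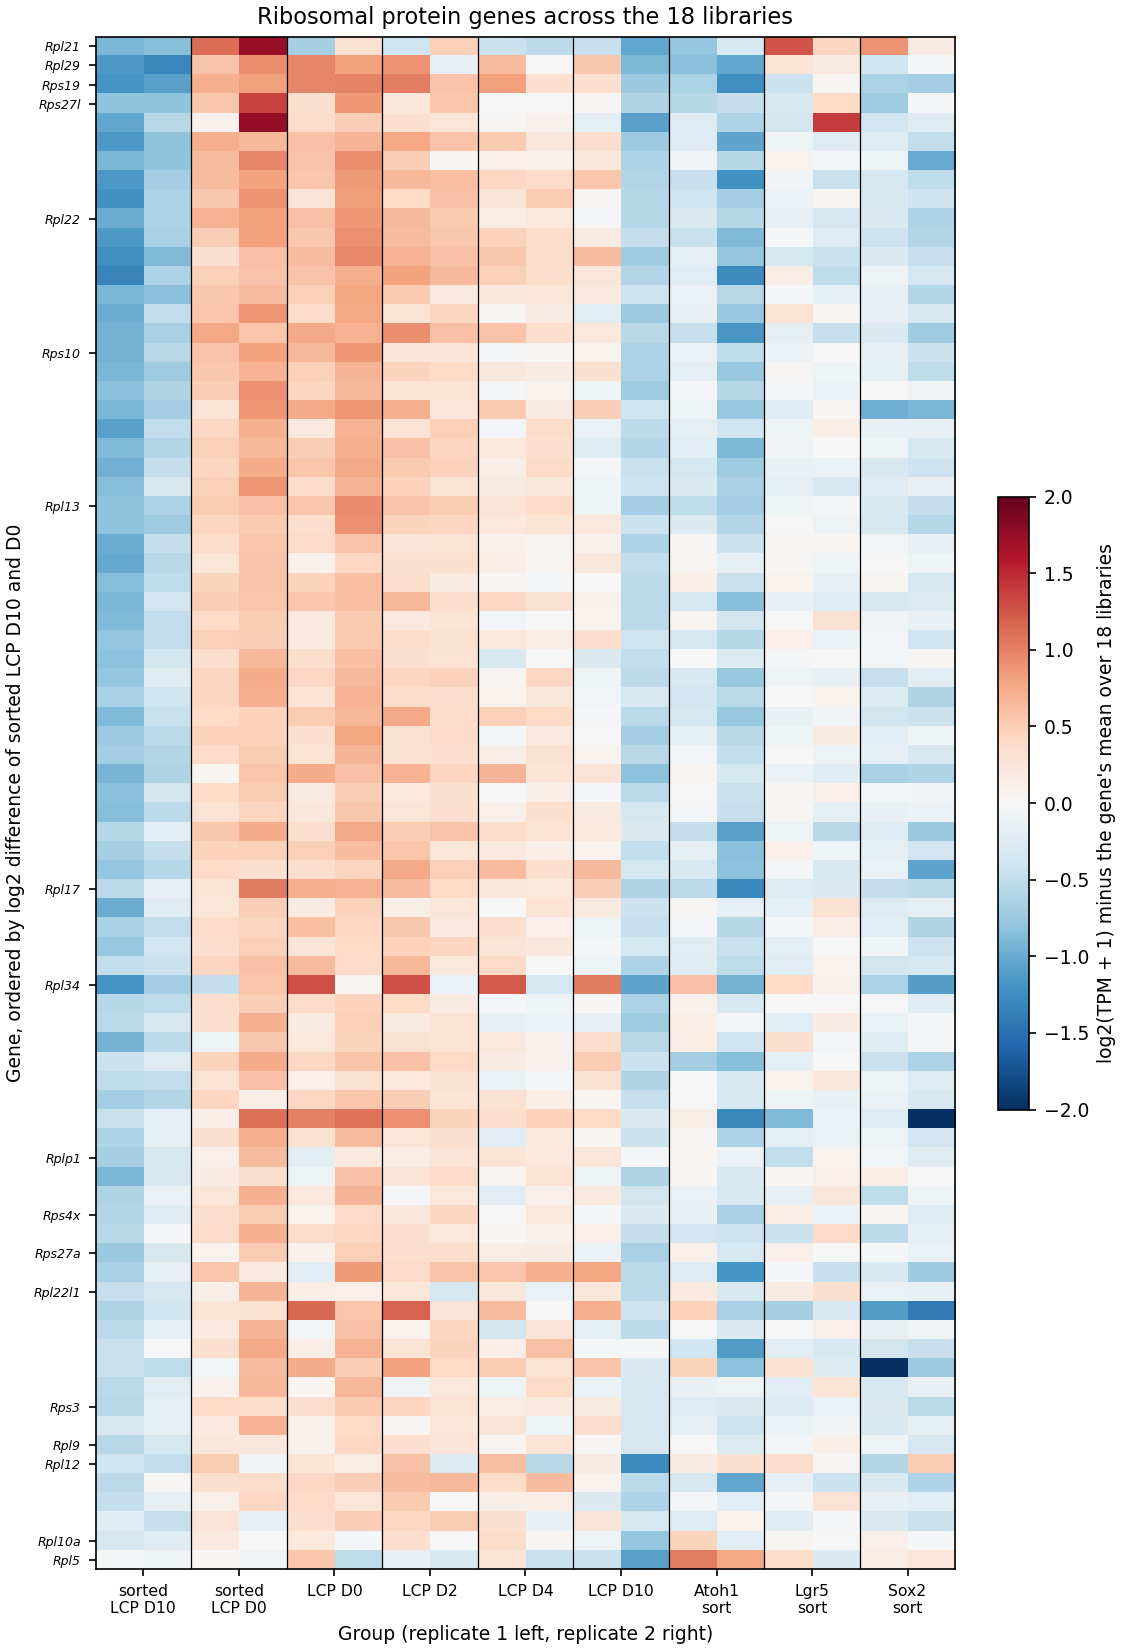
Level of each of the 80 members in each library as log2(TPM + 1) minus the gene's mean over 18 libraries, with red above and blue below it. Genes run from the lowest (Rpl21) to the highest (Rpl5) log2 difference between sorted D10 and sorted D0 cultures. Rows of some genes described in the text are labelled. Nearly every row is blue in the sorted D10 columns and red in the sorted D0 columns.

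Sorted cultures at D10 were compared with sorted cultures at D0. The marker of the sort is not given for either day, so the day and the sorted population cannot be told apart. Ribosomal protein mRNA fell across the family: 60 of the 80 tested members were lower at D10 and none was higher (limma on log2(TPM + 1), Benjamini-Hochberg adjusted p under 0.05), against 10.7% of all 20463 genes tested that were called lower. For 79 of the 80 members both D10 libraries lay below both D0 libraries, against 28.8% of all genes, the exception being Rpl5. The median difference was -1.05 for the members and 0.02 for all genes. The differences ranged from -2.31 to -0.04. Fewer members were called without replicate 1 of sorted D10 or replicate 2 of sorted D0, with medians of -0.90 and -0.97. All 18 cell cycle genes listed were lower at sorted D10 as well (summed 48.3 and 46.1 TPM, against 867 and 1086 TPM at sorted D0), and 13 of 14 hair cell markers were higher; the part of either in the ribosomal protein difference was not tested.

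Rps19 (ENSMUSG00000040952, chr7:24884371-24889806 in mm10) had 657 and 707 TPM at D10, against 2442 and 2647 TPM at D0 (log2 difference -1.90, SE 0.34, adjusted p = 0.0021). Rpl29, a large-subunit protein, had 41.8 and 37.5 TPM at D10, against 140.3 and 179 TPM at D0 (log2 difference -1.98, SE 0.44, adjusted p = 0.0068). Rps27l, a paralog of Rps27 known as a p53 target, had 267 and 268 TPM at D10, against 689.69 and 1199 TPM at D0 (log2 difference -1.76, SE 0.35, adjusted p = 0.0038). In all 3 genes the D10 libraries sat close together and well below the D0 libraries.

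Rpl21 showed the lowest value of all, with 21.5 and 22.4 TPM at D10, against 91.0 and 139.9 TPM at D0 (log2 difference -2.31, SE 0.43, adjusted p = 0.0029). With its pseudogene loci summed, its log2 difference was -1.07 (adjusted p = 0.0228), close to the median of the family. Sorted D0 cultures also stood above unsorted D0 cultures for Rpl21, at 91.0 and 139.9 TPM against 25.7 and 51.2 TPM, a log2 difference of 1.61 that did not pass the test (adjusted p = 0.359) and was 0.21 with the pseudogene loci summed.

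The called members that fell least were Rps4x (-0.84), Rps27a (-0.82), whose product is made as a fusion with ubiquitin, Rps3 (-0.75) and Rpl9 (-0.67). Rpl9 had 294 and 338 TPM at D10, against 503 and 502 TPM at D0 (SE 0.20, adjusted p = 0.0303). The uncalled members had differences of -1.004 to -0.04, with Rpl17 at the low end (-1.004, SE 0.36, adjusted p = 0.0626; -1.26 and adjusted p = 0.0050 with pseudogene loci summed). Rpl5 had 12.8 and 12.3 TPM at D10, against 13.4 and 12.5 TPM at D0 (log2 difference -0.04, SE 0.39, adjusted p = 0.976). With its 9 pseudogene loci summed, Rpl5 was lower too, by -0.97 (adjusted p = 0.0047), and 67 of 81 members were called lower in that summed fit, against 10.6% of all genes.

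Of the small-subunit genes 28 of 31 were called lower, with a median log2 difference of -1.23, and of the large-subunit genes 32 of 49, with a median of -1.004. The summed small-subunit TPM was 0.706 and 0.713 times the summed large-subunit TPM in sorted D10 cultures, against 0.874 and 0.881 times in sorted D0 cultures. Without Rps19 the ratios were 0.636 and 0.652 at D10, against 0.746 and 0.763 at D0, so the 2 days did not overlap either way. In unsorted cultures they did overlap, at 0.853 and 0.763 at D10, against 0.849 and 0.912 at D0. When each library was scaled to the family itself, which sets the family median near 0 by construction, 3 members differed from the rest of the family at sorted D10, against 39.2% of all genes called in that fit. Rpl21 (-1.20, adjusted p = 0.0435) and Rps19 (-0.76, adjusted p = 0.0270) were lower, and Rpl10a was higher (0.73, adjusted p = 0.0393). The values of Rpl21 and Rpl10a change with how loci are split: against D0 without that scaling, Rpl10a differed by -0.39 as listed and by -0.91 (adjusted p = 0.0066) with pseudogene loci summed, near the family median.

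The members were also split by sequence. Among members with the pyrimidine run at the start 28 of 35 were called lower (median -1.09), among those without it 18 of 25 (median -0.93), and among those with no entry 14 of 20 (median -1.14). By shared 75-base windows, 12 of 16 members with over 50% shared were called lower (median -1.11), and 10 of 14 with under 5% shared (median -0.98).

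**Figure D3:**
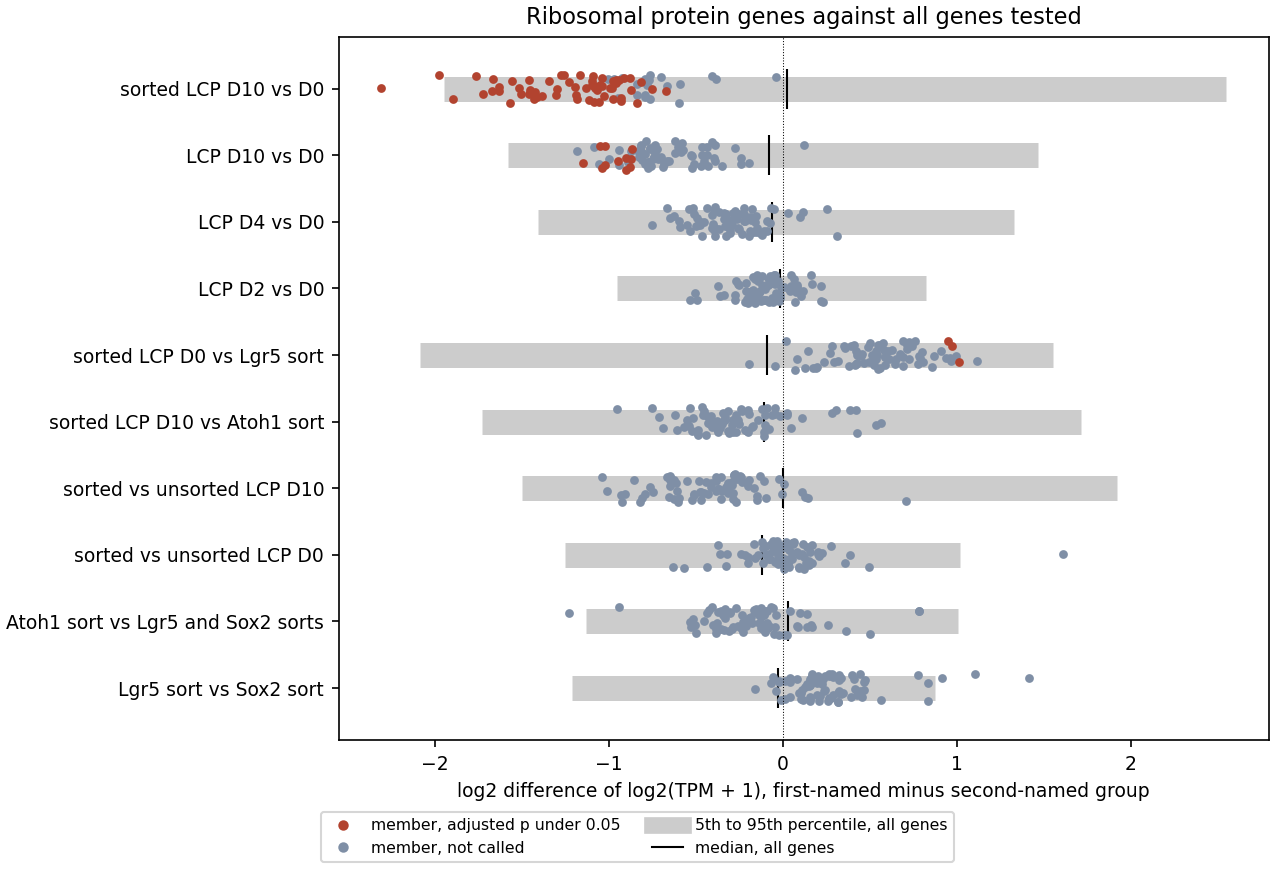
Differences of log2(TPM + 1) between groups, first-named minus second-named, for the 80 members (points, red where the adjusted p was under 0.05) beside the median (black line) and the 5th to 95th percentile (grey bar) of all 20463 genes. The members form a compact cloud that lies left of the all-gene median at D10, with medians of -1.05 in sorted and -0.74 in unsorted cultures, and right of it for sorted LCP D0 against the Lgr5 sort.

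Unsorted cultures at D10 were set against D0 in the same fit. Here 11 of 80 members fell and none rose, against 4.34% of all genes called lower, and the median member difference was -0.74, against -0.08 for all genes. Both D10 libraries lay below both D0 libraries for 61 members, against 27.3% of all genes. Among the 11 were Rpl13, Rpl31, Rps10, Rpl22, Rpl11, Rps16, Rpl35 and Rpl28, and all 11 were also called lower in sorted cultures. Replicate 1 of D10 stood nearer to D0 than replicate 2 did, and the count depended on it: 30 members were called without that library, 1 without replicate 1 of D0, and 0 without replicate 2 of either day. The count was 1 with median-of-ratios scaling, 0 in a fit of these 4 libraries alone, 6 with no filter on low values and 7 with mitochondrial genes left out. With the replicate number as a block it was 18, although the replicate 1 libraries of the 2 days were sequenced on different dates. The 18 cell cycle genes summed to 90.019 and 52.6 TPM at D10, against 812 and 989.53 TPM at D0, and 14 hair cell markers to 742 and 1427 TPM, against 97.4 and 99.4 TPM.

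Rpl13 had 183 and 123 TPM at D10, against 291 and 381 TPM at D0 (log2 difference -1.15, SE 0.21, adjusted p = 0.0077). Rps10 had 338 and 208 TPM at D10, against 507 and 589 TPM at D0 (log2 difference -1.04, SE 0.25, adjusted p = 0.0255). Rps10 also had the lowest difference of the family at D4, with 315 and 332 TPM against the same D0 values (-0.75, SE 0.25, adjusted p = 0.140). Rps19 had 1882 and 897 TPM at D10, against 2932 and 2978 TPM at D0, the lowest difference among the uncalled members (-1.19, SE 0.34, adjusted p = 0.0549). Rplp1, an acidic protein of the ribosomal stalk, was the member with a positive difference, with 695.56 and 569.58 TPM at D10, against 503 and 669 TPM at D0 (log2 difference 0.12, adjusted p = 0.885). Relative to the family, Rplp1 alone of 80 was called, higher at D10 (0.84, adjusted p = 0.0430), against 7.57% of all genes; its libraries overlapped in TPM. With pseudogene loci summed, 11 of 81 members were called lower, against 4.41% of all genes.

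**Figure D4:**
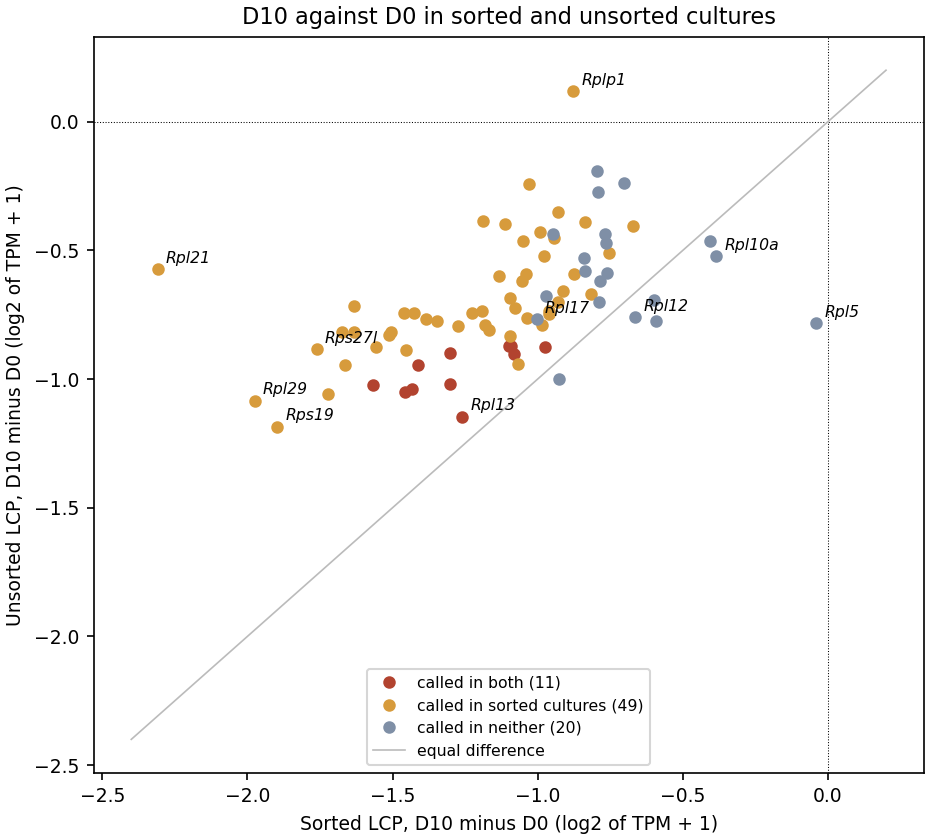
Log2 difference of each of the 80 members at D10 minus D0 in sorted (horizontal) and unsorted (vertical) cultures, with the line of equal difference in grey. Red points were called lower in both (11), orange points in sorted cultures (49) and grey-blue points in neither (20); most points lie above the line, where the difference in sorted cultures is the lower.

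The difference between the sorted and unsorted changes was tested directly, and it passed for 0 of 80 members in limma (3 at an unadjusted p under 0.05, smallest adjusted p = 0.334), against 0.205% of all genes. Rpl21 had the largest such difference, -1.74 (SE 0.61), which was -0.70 with its pseudogene loci summed. At earlier days no member was called: 0 of 80 at D2 in limma (0 at an unadjusted p under 0.05; median -0.10, against 0.0489% of all genes called) and 0 of 80 at D4 (4 at an unadjusted p under 0.05; median -0.30, against 3.39% of all genes called). Both D4 libraries lay below both D0 libraries for 50 members, against 25.9% of all genes. Rpl29 had the lowest value at D2, with 175 and 83.4 TPM, against 186 and 166 TPM at D0 (-0.54, SE 0.44, adjusted p = 1). Its difference was -0.01 without replicate 2 of D2 and -1.07 without replicate 1 of D2. The D2, D4 and D10 comparisons share their D0 libraries.

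Sorted and unsorted cells of the same day were compared next. At D10 the median member difference was -0.37, and 0 of 80 members passed in limma (17 at an unadjusted p under 0.05), against 6.22% of all genes called. Both sorted libraries lay below both unsorted ones for 30 members, against 25.8% of all genes. Rpl29 had the lowest value, with 41.8 and 37.5 TPM in sorted cells and 136 and 49.6 TPM in unsorted cells (-1.04, SE 0.44, adjusted p = 0.174). This value was -1.76 without replicate 2 of unsorted D10 and -0.32 without replicate 1. The median member difference was -0.66 without replicate 2 of unsorted D10 and -0.10 without replicate 1 of unsorted D10. It was -0.21 without replicate 1 of sorted D10. At D0 the differences fell on both sides of 0, with 39 members above it and 41 below, and 0 of 80 were called in limma (1 at an unadjusted p under 0.05), against 0.0782% of all genes. With median-of-ratios scaling the D0 split was 69 above and 11 below.

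No member passed between native sorts. For Atoh1 cells against the mean of Lgr5 and Sox2 cells, 0 of 80 members passed in limma (3 at an unadjusted p under 0.05), against 0.821% of all genes, with a median of -0.16 (0.01 without replicate 2 of the Atoh1 sort). Rpl21 had 23.7 and 32.9 TPM in Atoh1 cells, against 99.9 and 55.9 TPM in Lgr5 cells and 77.4 and 46.1 TPM in Sox2 cells (log2 difference -1.23, SE 0.38, adjusted p = 0.191), but its difference was -0.13 with pseudogene loci summed. For Lgr5 against Sox2 cells, 0 of 80 passed in limma (3 at an unadjusted p under 0.05), against 0.557% of all genes, and the median was 0.23. Both Lgr5 libraries lay above both Sox2 libraries for 42 members, against 12.3% of all genes. Rpl26 had 389 and 259.9 TPM in Lgr5 cells, against 74.1 and 189.6 TPM in Sox2 cells (log2 difference 1.42, SE 0.49, adjusted p = 0.494), and 0.10 with its pseudogene loci summed. Hair cell markers summed to 2486 and 3718 TPM in Atoh1 cells, against 1080.4 and 1959 TPM in Lgr5 cells and 1548 and 1835 TPM in Sox2 cells, so the sorts differed in these markers by degree. Sox2 cells had the most glial marker TPM, 430.05 and 942 against at most 70.8 in the other native sorts, and the part of this mixture in the ribosomal protein values was not tested.

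Cultured cells were also set against native cells. In sorted D0 cultures, compared with the Lgr5 sort, 3 members rose, against 3.85% of all genes called higher, so the share called was near that of all genes. The median member difference was 0.55, against -0.09 for all genes, and both sorted D0 libraries lay above both Lgr5 libraries for 66 members, against 18.3% of all genes. Rpl22, an RNA-binding large-subunit protein, had 245 and 266 TPM in sorted D0 cultures, against 134 and 119 TPM in Lgr5 cells (log2 difference 1.01, SE 0.23, adjusted p = 0.0143). Rpl10 rose by 0.97 (SE 0.29, adjusted p = 0.0498), and Rps2, the highest value not called, differed by 1.12 (SE 0.65, adjusted p = 0.350). The Rps2 difference was 0.57 with pseudogene loci summed, 0.64 without replicate 2 of sorted D0 and 0.73 without replicate 1 of Lgr5. No member was called in a fit of these 4 libraries alone. Calls were lost with any of these libraries left out, with medians of 0.45 to 0.68. The cell cycle genes summed to 867 and 1086 TPM in sorted D0 cultures, against 119 and 83.2 TPM in Lgr5 cells.

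For sorted D10 cultures against the Atoh1 sort, 0 of 80 members passed in limma (5 at an unadjusted p under 0.05), against 11.8% of all genes. The median was -0.29, but -0.08 without replicate 1 and -0.51 without replicate 2 of the Atoh1 sort, -0.17 without replicate 1 of sorted D10, and -0.12 with median-of-ratios scaling. Both sorted D10 libraries lay below both Atoh1 libraries for 34 members, against 36% of all genes. Rpl5 had the lowest value, with 12.8 and 12.3 TPM in sorted D10 cultures, against 27.6 and 23.0 TPM in Atoh1 cells (log2 difference -0.95, SE 0.39, adjusted p = 0.139), and its difference was -0.47 with pseudogene loci summed. Relative to the family, 2 members were called higher in sorted D10 cultures than in Atoh1 cells, Rpl13a (0.70, adjusted p = 0.0345) among them, against 11.3% of all genes called in that fit.

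Paralog pairs were read as the log2 ratio of the paralog to its partner, a measure that common scaling leaves unchanged. Of 7 pairs, 4 had both genes expressed in these cells and were tested in 2 comparisons each, with p adjusted over the 8 tests. Rpl22l1 and Rpl22 encode paralogous large-subunit proteins, and in mouse cells Rpl22 is known to repress Rpl22l1. Their ratio was lower in cultures, at 0.95 ± 0.44 (SD, n = 12), than in native sorts, at 1.55 ± 0.18 (SD, n = 6; exact permutation p = 0.00452, adjusted p = 0.0362). As for the share, the ratio tests of cultures against native sorts treat culture libraries of different days as exchangeable. Within the cultures the Rpl22l1 to Rpl22 ratio was 1.43 ± 0.20 at D10 and 0.66 ± 0.26 at D0 (SD, n = 4 each; exact permutation p = 0.0286, adjusted p = 0.0571, and p = 0.0556 within replicate numbers, the smallest possible there).

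In single libraries, the Rpl22l1 to Rpl22 log2 ratio was 1.68 and 1.44 in sorted D10 cultures, against 0.57 and 1.00 in sorted D0 cultures. In unsorted cultures it was 0.69 and 0.39 at D0, 0.74 and 0.27 at D2, 1.23 and 0.82 at D4, and 1.39 and 1.19 at D10. Atoh1 cells had 1.65 and 1.41, Lgr5 cells 1.49 and 1.82, and Sox2 cells 1.30 and 1.62. The D10 libraries thus lay above every D0 library and within or near the native range. The TPM behind the sorted ratio were 244 and 265 of Rpl22l1 at D10, against 363 and 536 at D0, and 75.5 and 96.7 of Rpl22 at D10, against 245 and 266 at D0. Rpl22l1 did not pass the test between these days (-0.79, adjusted p = 0.0765), whereas Rpl22 was lower by -1.57 (SE 0.23, adjusted p = 6.77e-04). Of the TPM summed with pseudogene loci, 96.8% was listed under Rpl22l1 itself and 99.7% under Rpl22.

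**Figure D5:**
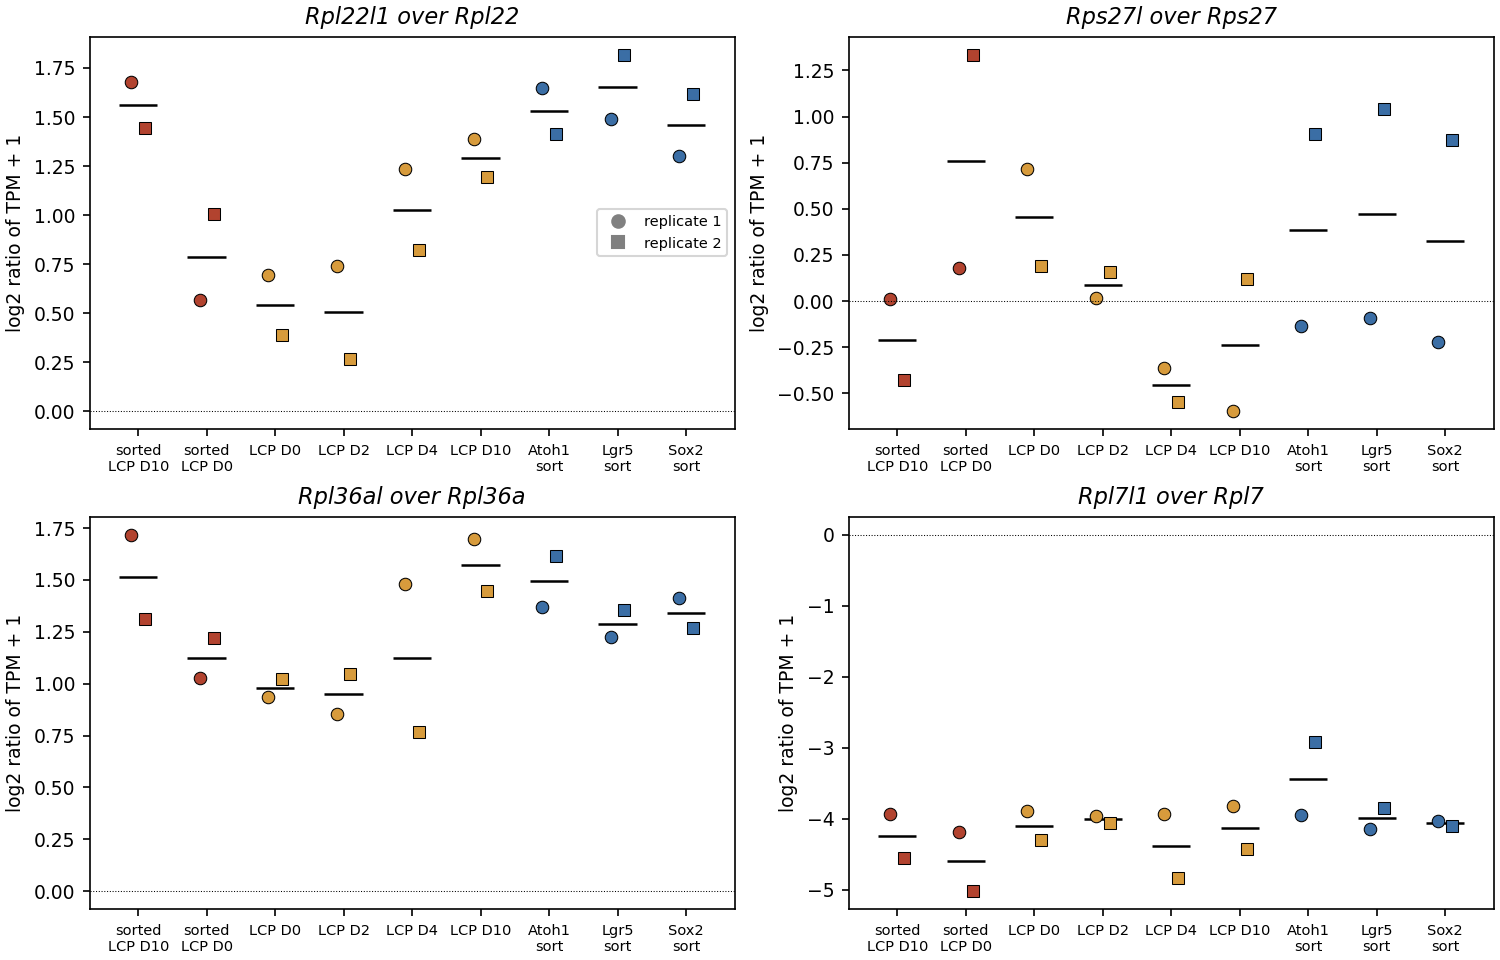
Log2 ratio of (TPM + 1) of a paralog to that of its partner in each library, for 4 pairs. Circles are replicate 1, squares replicate 2 and bars group means; red is sorted cultures, orange unsorted cultures and blue native sorts. Rpl22l1 over Rpl22 lies at 1.19 or above in all D10 libraries and at 1.005 or below in all D0 libraries, while Rps27l over Rps27 splits by replicate in the native sorts.

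None of the other ratios was called after adjustment. Between D10 and D0, Rps27l to Rps27 and Rpl36al to Rpl36a reached the same exact permutation p as Rpl22l1 to Rpl22. It is the smallest that the 70 arrangements allow, so it does not rank these pairs. Rps27l to Rps27 was -0.22 ± 0.34 at D10 and 0.61 ± 0.55 at D0, and Rpl36al to Rpl36a was 1.54 ± 0.20 at D10 and 1.05 ± 0.12 at D0 (SD, n = 4 each; exact permutation p = 0.0286 and adjusted p = 0.0571 for both). In the native sorts, Rps27l to Rps27 was -0.14, -0.09 and -0.22 in replicate 1 and 0.90, 1.04 and 0.87 in replicate 2 of Atoh1, Lgr5 and Sox2 cells, whose replicates were sequenced on different dates; the part of the date was not tested. For both pairs the cultures were not called different from native sorts (exact permutation adjusted p = 0.302 each). A locus named Rps27rt, not counted in these ratios, averaged 1032.5 TPM over the 18 libraries, above Rps27 in every library. How reads were split between Rps27rt and Rps27 was not tested. Rpl7l1 to Rpl7 was -4.18 ± 0.36 at D10 and -4.35 ± 0.48 at D0 (SD, n = 4 each; exact permutation adjusted p = 0.629), and -4.24 ± 0.39 in cultures and -3.83 ± 0.46 in native sorts (SD, n = 12 and 6; exact permutation adjusted p = 0.120).

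Other genes of ribosome production were read in the same fit at sorted D10 against D0. Over all 20463 genes 10.7% were called lower in this comparison, with a median of 0.02. Of 22 other genes with TOP mRNAs, 11 fell and none rose, against that 10.7%, with a median of -0.77. Among them Vim, an intermediate filament gene, had 23.0 and 20.5 TPM at D10, against 239 and 138 TPM at D0 (log2 difference -3.00, SE 0.55, adjusted p = 0.0026). Eef1g, a subunit of elongation factor 1, fell by 1.56 (SE 0.32, adjusted p = 0.0047), and Eef1a1, the abundant elongation factor, differed by -0.98 (adjusted p = 0.0535). Of 32 ribosome assembly factors 7 fell and 1 rose, with a median of -0.81, against 10.7% of all genes lower and 24% in either direction. The share of these factors called in either direction was thus near that of all genes. The lowest were Rrs1 (-2.82, SE 0.55, adjusted p = 0.0036) and Ltv1 (-1.80, SE 0.59, adjusted p = 0.0463), and Nop56 differed by -0.66 (adjusted p = 0.0729).

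Of 18 genes listed for rRNA transcription 4 fell and none rose, with a median of -0.69, against 10.7% of all genes lower and 24% in either direction. The share of this list called in either direction was near that of all genes. Those called included Polr1e (-1.46, SE 0.39, adjusted p = 0.0169) and Polr2f (-1.29, SE 0.20, adjusted p = 8.57e-04), each encoding an RNA polymerase subunit. Of 21 mTOR and Myc pathway genes 0 were called, against 24% of all genes in either direction, with a median of -0.35. Mitochondrial ribosomal proteins, a list of 78 genes taken after the values were seen, had 19 lower and 2 higher, with a median of -0.53. Over all genes 10.7% were called lower and 24% in either direction. The share of this list called lower was thus above that of all genes, and the share called in either direction was near it. At unsorted D10 against D0, where 4.34% of all genes were called lower, the counts were 2 lower of the TOP genes, Rack1 (-1.05, SE 0.29, adjusted p = 0.0468) being one of them, 1 lower each of the assembly and rRNA transcription genes, and 1 of the mTOR and Myc genes, Mycn (-2.71, SE 0.68, adjusted p = 0.0323), which had 1.89 and 1.96 TPM at D10, against 32.9 and 9.85 TPM at D0. Counts of 1 in lists of this length are near the share of all genes and are no result about the lists.

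Cell cycle and cell type markers moved with these comparisons. All 18 cell cycle genes were lower at unsorted D10 and D4 too, and higher in sorted D0 cultures than in Lgr5 cells. At D4 the cell cycle genes summed to 129 and 95.4 TPM, against 812 and 989.53 TPM at D0. No ribosomal protein gene passed at D4, but 75 of 80 had a negative difference (median -0.30). The 14 hair cell markers at sorted D10 had a sum of 2557 and 2021 TPM, against 69.3 and 55.7 TPM at sorted D0. The 13 supporting cell markers summed to 6753 and 7798 TPM at sorted D10, against 1835 and 756 TPM at sorted D0. Of these 13 markers 1 was called higher and 3 lower, against 24% of all genes called in either direction. The gene called higher, S100a1, made up most of that sum, with 6313 and 7335 TPM at sorted D10, against 674 and 487 TPM at sorted D0. The 9 mesenchyme markers summed to 64.1 and 49.0 TPM, against 1619.9 and 661 TPM, with Col3a1 at 0 in both sorted D0 libraries. Of 8 mesenchyme markers tested 3 fell, against 10.7% of all genes called lower. Immune, erythroid and endothelial markers summed to at most 5.26 TPM in these 4 libraries. The part of cell cycle, cell type or mitochondrial content in the ribosomal protein differences was not tested. Mitochondrial genome genes took 4.27% to 12.7% of TPM across the 18 libraries, and 14381 to 16713 genes reached 1 TPM, while read depth is unknown since TPM keeps none.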

How the data were processed

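The series holds 18 mouse cochlear RNA-seq libraries, 9 groups of 2. Per the labels' protocols, 2.5 ng of RNA per sample was amplified with a SMARTer kit and read as 75-base single ends; these kits do not mark strand. The authors deposited one table of TPM per library with 47729 gene IDs; the submitters' processing notes name STAR, Salmon, FastQC and DESeq2 and the mm10 build, with no version or order, so which of them made the TPM was not established here. TPM keeps no read depth, so no counting interval is given.

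Symbols and gene types came from GENCODE release M21 (47310 IDs matched, 419 did not) and promoters from a RefSeq table. Across all genes, limma 3.58.1 (R 4.3.3) was fitted to log2(TPM + 1) of all 18 libraries, one mean per group, with a mean-variance trend, for the 20463 genes at 1 TPM or more in at least 2 libraries. Calls had a Benjamini-Hochberg adjusted p under 0.05 over all genes tested. Fold differences on this scale understate changes of low genes. Adjusted p-values without another name are from this fit. Residual degrees of freedom were 9. Shares and paralog ratios were tested by exact two-sided permutation over libraries. Pseudogene loci were matched by blastn 2.17.0. The fit was also run on simulated data with known changes. For unsorted D10 against D0 it recovered 9% of log2 differences of 1 and 52% of those of 2. For sorted D10 against D0 it recovered 5% and 60%, and for Atoh1 against Lgr5 and Sox2 cells 20% and 66%. False calls were 1, 4 and 11 among 20463 genes. Fewer genes were changed there than were called at D10 in the data. Not being called is thus no evidence that a member did not change.

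Named members were, per comparison, every member called if 8 or fewer, otherwise the 4 highest and 4 lowest called, plus the uncalled member of largest difference; over all groups, the 5 highest and lowest in mean TPM and the 5 most and least variable; the paralog pairs; and, for other lists, the 2 called genes of largest difference and the most abundant uncalled one. Genes outside this rule are named where all of a short set is listed, to show a sequence, or to follow a named gene elsewhere. Some members that fall under the rule are not reported here by name. The members and lists were chosen with earlier results of these data known.

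In most limma comparisons libraries of the same replicate number share a sequencing date in the labels. Replicate 1 differs in date for unsorted D10 against D0, sorted against unsorted D0, and the difference of the sorted and unsorted changes. Dates also mix within replicate 1 in the share and ratio tests of D10 against D0 and of cultures against native sorts. Permuting within replicate numbers does not hold the date fixed there. Deviations from group means of same-numbered libraries correlated at -0.02 to 0.48 over 36 pairs of groups (median 0.10). The reported fit carries no block, and one with the replicate number as a block was run as an alternative. Beyond each sample coming from 1 pup, nothing says whether replicates came from separate cultures, so p-values measure the spread between these libraries, which may be technical. Alternatives varied the pseudocount, the filter, the scaling, the share's members and denominator, the libraries in the fit, a date term and each library left out; summing members with pseudogene loci was added after the data were seen.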

Additional observations from a re-analysis of the deposited data

How the results depend on the processing

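Of the alternative values for the shares and counts of calls, 162 stayed on the same side of the threshold or within 1.5 times the count, 23 moved and 25 were weaker; for single genes and paralog ratios 417 were the same, 116 weaker, 7 stronger and 6 reversed. The fall of members at sorted D10 against D0 was called for 48 to 67 members in all settings but one: scaled to the members, which removes a shared change by construction and put the all-gene median at 0.87, against 0.02, 3 were called, and Rps4x (0.30), Rps27a (0.31), Rps3 (0.38), Rpl9 (0.46) and Rpl17 (0.13) turned positive. With a library left out 23 to 59 were called. At unsorted D10 against D0, 6 members were called with no filter on low values, 7 with mitochondrial genes left out, 1 with median-of-ratios scaling, 1 scaled to the members, 0 with only the libraries compared (fewer libraries), 18 with the replicate block, and 0 to 30 with a library left out. For sorted against unsorted D10, 1 was called with a sequencing date term and 0 to 15 with a library left out. For sorted D10 against the Atoh1 sort, 2 were called scaled to the members and 1 with a date term. For sorted D0 against the Lgr5 sort, 0 were called scaled to the members, 6 summed with pseudogene loci and 0 with only the libraries compared. Calls were lost with any library left out, and the median lay between 0.45 and 0.68. The share difference between cultures and native sorts was 0.819 percentage points with the replicate block (exact permutation p = 0.0510), 1.89 with pseudogenes added (exact permutation p = 0.0721), 0.41 as a difference of the median log2 level (exact permutation p = 0.0630) and 0.718 to 0.960 with a library left out. Between D10 and D0 it was -1.77 with the replicate block (exact permutation p = 0.0556, the smallest possible) and -2.05 to -1.59 with a library left out (exact permutation p = 0.0571 each, the smallest possible). The Rpl7l1 to Rpl7 log2 ratio at D10 against D0, uncalled throughout, lay between -0.055 (without sorted D0 replicate 2) and 0.32. The causes of the other shifts were not tested. A lone library of a group is assumed to vary like the other groups. Precision is limited by 2 libraries a group and an unknown depth.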
